A study of Mus musculus with 7 samples.

Results

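The 7 genes followed here are known from osteocytes, the cells buried in bone, and were measured in the femur after a traumatic brain injury: Phex, Fgf23, Gja1, Pdpn, Ptprz1, Fbln7 and Irx5. They were taken by name, with earlier results of these data known. All 7 were found among the 49671 rows of the count table, and all 7 passed the filter on low counts, which left 17144 genes for testing. Messenger RNA was sequenced from whole femurs of wild-type mice taken 3 days after a controlled cortical impact, a piston blow to the exposed brain that causes a traumatic brain injury (TBI, 4 libraries), and from femurs of wild-type mice that served as uninjured controls (3 libraries). The labels state no strain, age or sex, and they do not say whether the control mice had any surgery. Nor do they say that each numbered replicate is a separate animal, so the p-values reflect variation among the sequenced samples, which may be technical. The comparison asks how the mRNA of a distant bone differs after a brain injury.

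Osteocytes are osteoblasts that have been buried in the mineral they laid down. They stay joined to one another and to the bone surface by long processes that run through fine canals, and they act as the endocrine cells of bone. Through the hormone FGF23 they lower phosphate reabsorption in the kidney, and the surface peptidase PHEX restrains that hormone. In mice and in humans, loss of PHEX raises FGF23 and causes phosphate wasting with soft bone.

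All 7 genes had a lower estimate after TBI, where 45.6% of all tested genes did. The estimates ranged from −0.14 to −0.86 on the log2 scale with a median of −0.62, while the median of all tested genes was 0.026. In 4 of the 7, Phex, Gja1, Ptprz1 and Fbln7, the highest TBI library was lower than the lowest control library, which was so for 5.38% of all genes, while the opposite arrangement held for 2.66% of all genes and none of the 7. The same 4 had an unadjusted p under 0.05 and a lower estimate, as did 4.97% of all genes (7.34% in either direction). Because the 7 were chosen with earlier results of these data known, these shares are a description and not a test. No gene among the 17144 passed an adjusted p of 0.05 in edgeR's quasi-likelihood test (0.0% called), so none of the 7 did. DESeq2 called 103 of the 16809 genes to which it gave an adjusted p (0.613%; 0.565% lower after TBI), and Ptprz1 and Gja1 were among them. The femur was crushed whole. Fewer osteocytes, less mRNA per osteocyte, less of the same mRNA from other cells and a smaller share of bone cannot be told apart.

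**Figure D1:**
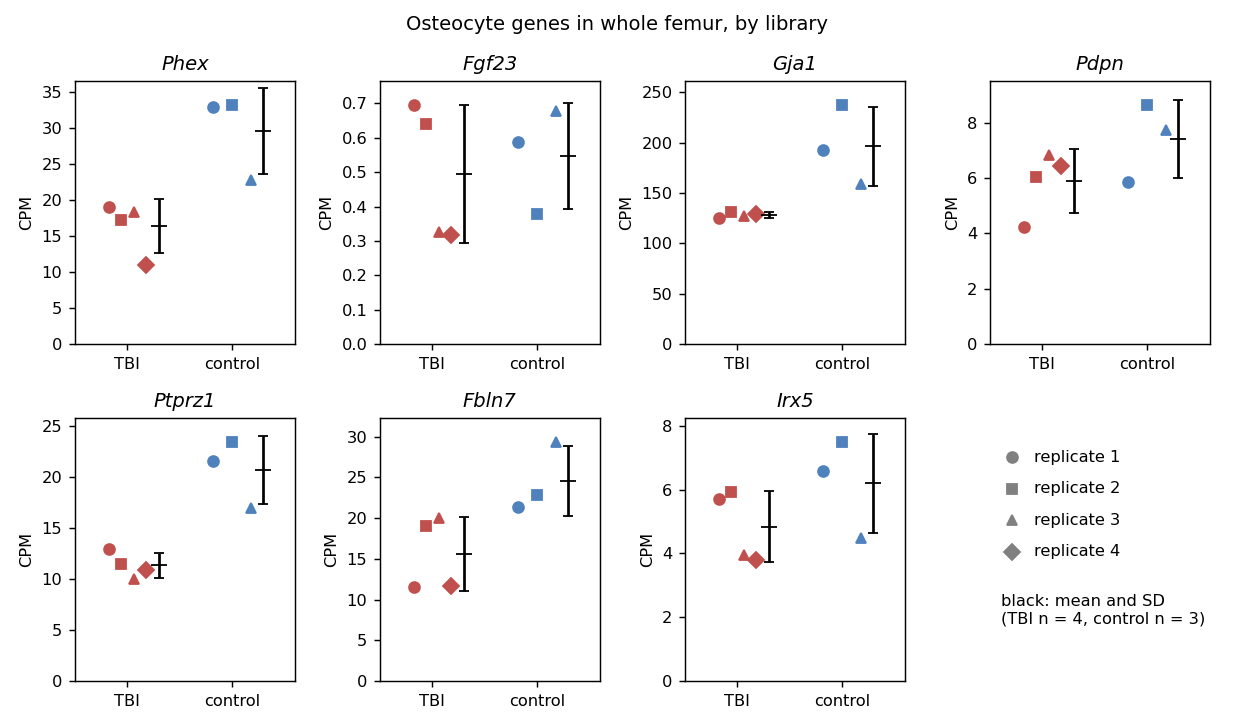
Normalised level (CPM, counts normalised to TMM-scaled library size) of each gene in the 4 TBI and 3 control libraries, with marker shape for the replicate number and the mean and SD in black. Red TBI points lie below all blue control points for Phex, Gja1, Ptprz1 and Fbln7 and overlap them for Fgf23, Pdpn and Irx5.

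Library totals ran from 20470241 to 21783534 counts after TBI and from 15461528 to 20675655 in controls, where 1 count equals 0.0459 to 0.0647 CPM before TMM scaling. The libraries differed in tissue makeup. In CPM, the count normalised to TMM-scaled library size, skeletal muscle markers summed to 29857, 46057, 116247 and 148203 CPM in TBI 1 to 4, against 25122, 48580.3 and 81710.2 CPM in controls 1 to 3. All 22 had a higher estimate after TBI, none of them had an unadjusted p under 0.05 in edgeR, and none was at 0. Mature neutrophil markers summed to 2620 to 13870 CPM after TBI and 3757 to 5672 CPM in controls, with 15 of 16 estimates higher and 1 unadjusted p under 0.05. Osteoblast markers summed to 14592 to 19550.0 CPM after TBI and 22474 to 36526 CPM in controls, with 19 of 20 estimates lower. Their median was −0.72, edgeR called 0 of the 20 (17 unadjusted p under 0.05) and DESeq2 called 9. Chondrocyte markers summed to 3329 to 4004 CPM after TBI and 5387 to 6665 CPM in controls, and all 18 had a lower estimate (median −0.70). The part of these shifts in each result below was not tested, apart from the values given beside the genes.

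Defining markers of osteocytes were read in the same libraries. Dmp1, a matrix phosphoprotein of osteocytes, measured 132.7, 77.5, 70.3 and 47.9 CPM in TBI 1 to 4 and 133.7, 121.2 and 72.9 CPM in controls 1 to 3. Mepe, a relative of Dmp1, measured 8.86, 11.6, 4.28 and 3.43 CPM in TBI 1 to 4 and 15.7, 18.9 and 12.6 CPM in controls. Sost, which encodes the Wnt inhibitor sclerostin, measured 3.13, 7.88, 1.79 and 1.21 CPM in TBI 1 to 4 and 7.81, 10.4 and 4.80 CPM in controls. All 3 were detected in every library.

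The promoters of 4 of the genes are shown, from 250 bases before to 50 bases after the RefSeq start on GRCm38.p6, each read 5′ to 3′ on the strand of its gene. Phex, Ptprz1 and Gja1 are the 3 members with the smallest p, and Fgf23 encodes the hormone. Capitals mark matches to any of 7 short motifs searched on both strands, and no match overlaps another in these windows. The motifs were the RUNX core TGTGGT, the AP-1 element TGANTCA, the TATA box TATAAA, the GC box GGGCGG, the TCF/LEF core CTTTGA, the homeodomain core TAATTA and the CCAAT box CCAAT.
Phex (chrX:157415237-157415536, minus strand): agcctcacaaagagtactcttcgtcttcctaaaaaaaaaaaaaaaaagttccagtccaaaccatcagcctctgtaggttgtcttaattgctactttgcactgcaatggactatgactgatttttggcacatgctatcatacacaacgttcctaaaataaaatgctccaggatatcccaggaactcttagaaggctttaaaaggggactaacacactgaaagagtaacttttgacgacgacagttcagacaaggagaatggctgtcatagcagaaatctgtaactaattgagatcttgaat
Ptprz1 (chr6:22875252-22875551, plus strand): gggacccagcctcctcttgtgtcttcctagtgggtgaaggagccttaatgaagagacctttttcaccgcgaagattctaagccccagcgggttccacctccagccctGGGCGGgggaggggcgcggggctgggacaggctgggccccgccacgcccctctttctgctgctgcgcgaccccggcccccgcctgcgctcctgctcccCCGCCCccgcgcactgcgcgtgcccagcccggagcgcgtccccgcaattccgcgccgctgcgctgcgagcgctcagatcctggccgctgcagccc
Gja1 (chr10:56377050-56377349, plus strand): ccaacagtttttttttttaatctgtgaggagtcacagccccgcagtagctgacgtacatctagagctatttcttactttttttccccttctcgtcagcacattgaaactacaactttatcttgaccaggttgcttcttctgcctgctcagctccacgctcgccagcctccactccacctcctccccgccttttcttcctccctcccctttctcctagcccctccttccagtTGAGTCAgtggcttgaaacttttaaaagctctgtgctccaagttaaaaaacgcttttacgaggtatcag
Fgf23 (chr6:127072652-127072951, plus strand): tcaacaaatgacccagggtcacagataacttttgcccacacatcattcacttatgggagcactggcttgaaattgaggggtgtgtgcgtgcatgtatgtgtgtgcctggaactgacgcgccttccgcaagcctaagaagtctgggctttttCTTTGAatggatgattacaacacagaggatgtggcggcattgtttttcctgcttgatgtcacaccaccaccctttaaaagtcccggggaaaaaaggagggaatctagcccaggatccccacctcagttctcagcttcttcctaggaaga

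The windows differ in base composition. The Ptprz1 window is 71.7% G and C with 29 CpG pairs, and 92.6% of the 32851 mouse promoter windows of the same length have a lower G and C content. The Phex window is 38.7% G and C with 4 CpG pairs, and 7.91% of windows have a lower content. Gja1 stands at 47.7% with 8 CpG pairs and Fgf23 at 49.0% with 6, against a median of 52.7% and 7 over all windows. The Fbln7 window has 66.0% and 22 CpG pairs, and that of Pdpn 48.7% and 7. The Gja1 window holds an AP-1 element at bases 232 to 238, a motif found in 7.81% of all windows. Ptprz1 holds a GC box on each strand, at bases 108 to 113 and 206 to 211, and Pdpn also holds the motif, which 35.7% of windows have. Fgf23 holds a TCF/LEF core at bases 152 to 157 and Fbln7 holds one too, against 16.0% of windows. No motif of the 7 was found in more than 2 of the 6 members with a window, and the RUNX core, present in 16.8% of all windows, was found in none of the 6. The Phex window held none of the 7. A match describes letters in these windows and no more.

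Phex, a zinc peptidase of the neprilysin family on the surface of osteocytes and osteoblasts, is the member through which phosphate handling in bone is best known. The gene (ENSMUSG00000057457, protein coding) spans chromosome X, 157162075 to 157415312 on the minus strand of GRCm38. No other annotated gene overlaps its exons. It measured 19.0, 17.2, 18.3 and 10.9 CPM in TBI 1 to 4, against 32.9, 33.2 and 22.7 CPM in controls 1 to 3. TBI 4 was the lowest of all 7 libraries, control 3 was the lowest control, and the groups did not overlap. Phex averaged 16.4 ± 3.71 CPM after TBI (SD, n = 4) and 29.6 ± 5.94 CPM in controls (SD, n = 3), so the TBI mean was 55.3% of the control mean. The log2 fold change was −0.85 ± 0.22 (SE), with an unadjusted p of 0.00383 and an adjusted p of 0.443 in edgeR's quasi-likelihood test. Of all tested genes, 1.31% had an estimate as low or lower. With the mean of the muscle markers added to the fit the estimate was −0.72, and without TBI 3 and TBI 4, the libraries with the most muscle mRNA, it was −0.73.

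Fgf23 (ENSMUSG00000000182, protein coding, chromosome 6, 127072902 to 127081408, plus strand) was the rarest of the 7, with 6 to 16 counts per library. It measured 0.695, 0.639, 0.325 and 0.316 CPM in TBI 1 to 4 and 0.587, 0.378 and 0.678 CPM in controls 1 to 3. TBI 1 was the highest library and TBI 4 the lowest, and the control values lay between them. The means were 0.494 ± 0.201 CPM after TBI (SD, n = 4) and 0.548 ± 0.154 CPM in controls (SD, n = 3). The log2 fold change was −0.14 ± 0.44 (SE; edgeR adjusted p = 0.943). The coefficient of variation was 40.7% in the TBI libraries and 28.0% in controls, where counting error alone gives about 34% and 32.7%. No difference in Fgf23 was detected. The estimate changed sign when single libraries were left out, with values between −0.34 and 0.031. Without TBI 3 and TBI 4 together, the 2 libraries with the most muscle mRNA and the least Fgf23, it was 0.24.

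Around these 2 genes, a list of 25 other genes of the phosphate and FGF23 axis had 18 tested members. Of these, 15 had a lower estimate and 3 a higher one, with a median of −0.35. None passed in edgeR over all genes, 7 had an unadjusted p under 0.05, all lower, and DESeq2 called 1. That gene was Alpl, the phosphatase that frees phosphate for mineral, at 177 ± 7.24 CPM after TBI (SD, n = 4) and 280.7 ± 43.4 CPM in controls (SD, n = 3), a log2 fold change of −0.67 ± 0.14 (SE). Enpp1, the enzyme that makes the mineral inhibitor pyrophosphate, stood at −0.57 ± 0.15 and its groups did not overlap. Among the FGF receptors, Fgfr3 was at −0.58 ± 0.14, Fgfr2 at −0.49 ± 0.12 and Fgfr1 at −0.32 ± 0.15, or −0.52 without TBI 3 and TBI 4. The remaining receptor, Fgfr4, was named after its values were seen and lay the other way at 0.079 ± 0.66, with 1.62 ± 0.99 CPM after TBI (SD, n = 4) and 1.53 ± 1.052 CPM in controls (SD, n = 3).

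The enzymes that act on the FGF23 protein were in the same list. Galnt3, the glycosyltransferase that protects FGF23 from cleavage, measured 7.09 ± 2.36 CPM after TBI (SD, n = 4) and 6.82 ± 2.99 CPM in controls (SD, n = 3), at 0.057 ± 0.35 (SE). Furin, a protease that cleaves it, was at −0.045 ± 0.12, with 85.2 ± 8.002 CPM after TBI (SD, n = 4) and 87.9 ± 4.97 CPM in controls (SD, n = 3). Both changed sign with single libraries left out. Fam20c, the kinase that phosphorylates FGF23 and the matrix proteins DMP1 and MEPE, was at −0.39 ± 0.16. Dmp1 was at −0.41 ± 0.34, between −0.74 and −0.22 with 1 library left out and at −0.075 without TBI 3 and TBI 4, and it was −0.17 with the muscle covariate. Kl, which encodes the FGF23 co-receptor klotho and is known chiefly from kidney, measured 0.174, 0.0426, 0.108 and 0.949 CPM in TBI 1 to 4 and 0, 0.063 and 0.313 CPM in controls 1 to 3. It did not pass the filter on low counts. Another 6 listed genes were also not tested, among them Slc34a1, the kidney phosphate carrier, and Cyp27b1 and Cyp24a1, which make and break active vitamin D. Slc34a3 and Epo had 0 counts in all 7 libraries.

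The neprilysin family, to which PHEX belongs, gave a median of −0.24 in 5 tested genes of 6. Of these, 4 were lower, and none passed in edgeR over all genes (1 unadjusted p under 0.05, 0 called by DESeq2). Kel, a blood group antigen of red cells, was at −0.42 ± 0.17 (SE). The erythroid list it accompanies in marrow had 16 of 17 estimates lower, with sums of 26678 to 37227 CPM after TBI and 48513 to 56612 CPM in controls. The globin gene Hbb-bs alone averaged 10780 ± 1622 CPM after TBI (SD, n = 4) and 18410 ± 1898 CPM in controls (SD, n = 3). The erythroid median was −0.26, 5 genes had an unadjusted p under 0.05 in edgeR, and the mean log2 CPM of the list overlapped between groups. Ece2 was at −0.18 ± 0.17, and at −0.29 without TBI 2. Mmel1 was at −0.24 ± 0.24, and at −0.16 without TBI 2 or −0.14 without TBI 4. Mme, neprilysin itself, was at −0.24 ± 0.27, and between −0.47 without TBI 1 and 0.021 without control 1.

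Gja1, which encodes connexin 43, the main gap junction protein between osteocyte processes, was the most abundant of the 7 per length of transcript. The gene (ENSMUSG00000050953, protein coding) lies on chromosome 10, 56377330 to 56402513, plus strand. It measured 125.2, 131.5, 127.4 and 128.9 CPM in TBI 1 to 4, against 193.1, 237.4 and 158.8 CPM in controls 1 to 3. All TBI libraries were close together and below every control, while the controls were spread. The coefficient of variation of the TBI libraries was 2.05%, where counting error alone gives 1.94%. In controls counting error gives 1.66%, far below their spread. The means were 128.2 ± 2.62 CPM after TBI (SD, n = 4) and 196.4 ± 39.4 CPM in controls (SD, n = 3). The log2 fold change was −0.62 ± 0.15 (SE), with an unadjusted p of 0.00259 and an adjusted p of 0.423 in edgeR. DESeq2 gave an adjusted p of 0.0499, and the adjusted p over all alternatives ran from there to 0.987, reached in edgeR without control 2. Without control 2, the highest library, the estimate was −0.46, and it lay between −0.75 and −0.46 over all single libraries left out. Connexin 43 is also made by vessels. The 9 blood endothelial markers summed to 353.9 to 553.6 CPM after TBI and 349.4 to 459.1 CPM in controls, 7 of 9 had a higher estimate (median 0.05), and none was at 0. The osteoblast and chondrocyte lists had medians of −0.72 and −0.70. Which cells the Gja1 mRNA came from was not tested.

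Of 24 other connexin and pannexin genes, 9 had enough counts to test, with 5 lower, 4 higher and a median of −0.021. None passed in edgeR over all genes (1 unadjusted p under 0.05), and DESeq2 called 1. That gene was Panx3, the pannexin of osteoblasts and growth plate chondrocytes, which measured 22.2, 14.1, 17.7 and 16.1 CPM in TBI 1 to 4 and 29.9, 31.8 and 25.7 CPM in controls 1 to 3. Its groups did not overlap, and its log2 fold change was −0.73 ± 0.17 (SE). Gjc1, which encodes connexin 45, was at −0.40 ± 0.21, and at −0.15 without control 3. Gja4, a connexin of arteries, was at 0.14 ± 0.28.

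Pdpn encodes podoplanin, also called E11, a membrane protein of young osteocytes that takes part in growing their processes. The gene (ENSMUSG00000028583, protein coding) lies on chromosome 4, 143267431 to 143299564, minus strand. It measured 4.21, 6.05, 6.83 and 6.43 CPM in TBI 1 to 4 and 5.87, 8.64 and 7.72 CPM in controls 1 to 3. TBI 1 was the lowest library, and the other 3 TBI libraries lay between control 1 and control 3, so the groups overlapped. The means were 5.88 ± 1.16 CPM after TBI (SD, n = 4) and 7.41 ± 1.41 CPM in controls (SD, n = 3). The log2 fold change was −0.33 ± 0.22 (SE; edgeR adjusted p = 0.763), with −0.21 without TBI 1 or without control 2 and −0.55 without TBI 3 and TBI 4 together. Podoplanin also marks lymphatic vessels. Lymphatic markers summed to 98.5 to 140 CPM after TBI and 86.4 to 128.1 CPM in controls, 3 of the 5 tested were lower (median −0.016), and Ccl21a had 0 counts in all libraries. The cell source of the Pdpn mRNA was not tested.

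The genes for the partners of podoplanin and for actin linkers mostly had estimates above 0, many of them small. Of 13 partners and actin linkers, 12 were tested, and 11 had a higher estimate and 1 a lower one (median 0.10). Of all 17144 tested genes, 9333 had a higher estimate. None of the 12 passed in edgeR over all genes (0 unadjusted p under 0.05, 0 in DESeq2). Clec1b, the platelet receptor that podoplanin binds, was at 0.43 ± 0.31 (SE), between 0.26 and 0.82 with 1 library left out (without control 3 and without control 1), and at 0.71 with the muscle covariate. Hspa9, a mitochondrial chaperone, was at 0.32 ± 0.21, and Rdx, the membrane-to-actin linker radixin, at 0.23 ± 0.17. Without TBI 4 they were at 0.19 and 0.14, with the muscle covariate at 0.12 and 0.11, and without TBI 3 and TBI 4, the libraries with the most muscle mRNA, at −0.057 and −0.060.

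**Figure D2:**
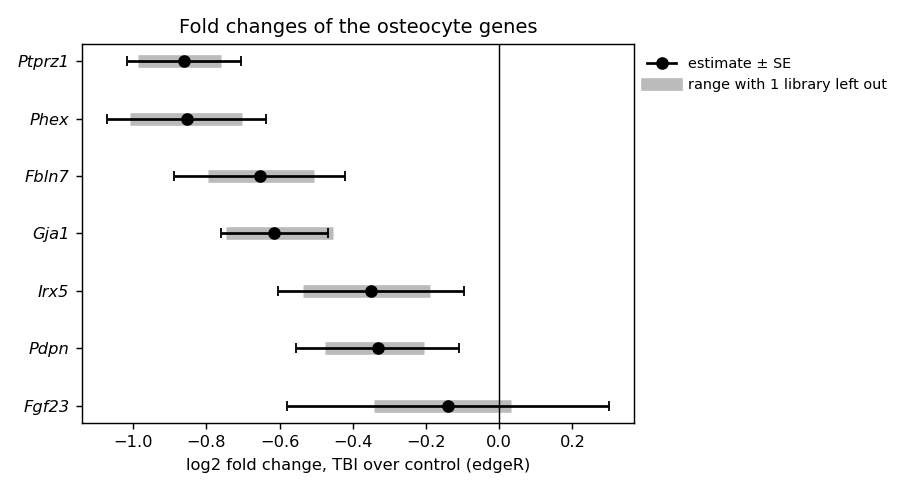
Log2 fold change of each gene, TBI over control, from edgeR's quasi-likelihood fit, with the SE as black bars and the range with 1 library left out in grey. Ptprz1 and Phex stand lowest at −0.86 and −0.85, and the grey range of Fgf23 crosses 0.

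Ptprz1 had the smallest p of the 7. It encodes a receptor tyrosine phosphatase that binds the growth factors pleiotrophin and midkine and is otherwise best known from glia. The gene (ENSMUSG00000068748, protein coding) spans chromosome 6, 22875502 to 23052916, plus strand. It measured 12.9, 11.5, 10.03 and 10.9 CPM in TBI 1 to 4, against 21.5, 23.5 and 16.9 CPM in controls 1 to 3. The groups did not overlap, and TBI 3 was lowest. The means were 11.4 ± 1.23 CPM after TBI (SD, n = 4) and 20.6 ± 3.34 CPM in controls (SD, n = 3), a TBI mean of 55.0% of the control mean. The log2 fold change was −0.86 ± 0.16 (SE), with an unadjusted p of 0.00044, ranked 8 among all genes, and an adjusted p of 0.423 in edgeR. DESeq2 called it at an adjusted p of 0.00339, the lowest over the alternatives, which reached 0.987 without control 2 in edgeR. The estimate lay between −0.99 and −0.76 with 1 library left out, and was −0.78 with the muscle covariate. Glial and Schwann cell markers summed to 217.9 to 244 CPM after TBI and 233.5 to 248.4 CPM in controls, with 6 lower and 5 higher of 11 tested (median −0.078), and none was at 0. The cell source of the Ptprz1 mRNA was not tested.

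The genes for both ligands also had lower estimates. Ptn, which encodes pleiotrophin, measured 16.3, 14.6, 11.01 and 21.9 CPM in TBI 1 to 4 and 21.8, 32.8 and 29.1 CPM in controls 1 to 3, and TBI 4 lay just above control 1. Its log2 fold change was −0.80 ± 0.24 (SE). Mdk, which encodes midkine, measured 7.47, 8.98, 7.27 and 7.54 CPM in TBI 1 to 4 and 11.1, 13.2 and 8.71 CPM in controls 1 to 3, at −0.49 ± 0.18. Tnc, a matrix protein that binds the receptor, was at −0.65 ± 0.23. Over the list of 17 ligands, partners and relatives, 13 were tested, 11 were lower and 2 higher, the median was −0.14, and 4 had an unadjusted p under 0.05. None passed in edgeR over all genes, and DESeq2 called 0.

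Fbln7 encodes fibulin 7, a secreted protein of the extracellular matrix. The gene (ENSMUSG00000027386, protein coding) lies on chromosome 2, 128862981 to 128897034, plus strand. It measured 11.6, 19.0, 20.01 and 11.7 CPM in TBI 1 to 4, against 21.4, 22.8 and 29.4 CPM in controls 1 to 3. TBI 1 and TBI 4 were far below the controls, TBI 2 and TBI 3 just below control 1, and the groups did not overlap. The means were 15.6 ± 4.56 CPM after TBI (SD, n = 4) and 24.5 ± 4.27 CPM in controls (SD, n = 3). The log2 fold change was −0.65 ± 0.23 (SE), with an unadjusted p of 0.0221 and an adjusted p of 0.615 in edgeR, and it lay between −0.80 and −0.51 with 1 library left out. The 7 other fibulin and hemicentin genes were all tested, with 6 lower, a median of −0.29 and 2 unadjusted p under 0.05. None passed in edgeR over all genes, and DESeq2 called 0. Hmcn1, a large hemicentin of basement membranes, was at −0.68 ± 0.17 (SE), Efemp2, a fibulin of elastic fibres, at −0.47 ± 0.15, and Fbln1 at −0.42 ± 0.20.

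Irx5, an Iroquois homeobox transcription factor is known to pattern the limb skeleton of the mouse together with Irx3. The gene (ENSMUSG00000031737, protein coding) lies on chromosome 8, 92357625 to 92376286, plus strand. It measured 5.69, 5.92, 3.96 and 3.79 CPM in TBI 1 to 4 and 6.59, 7.50 and 4.48 CPM in controls 1 to 3. TBI 1 and TBI 2 lay between controls, while TBI 3 and TBI 4 lay below them all. The means were 4.84 ± 1.12 CPM after TBI (SD, n = 4) and 6.19 ± 1.55 CPM in controls (SD, n = 3), and the log2 fold change was −0.35 ± 0.25 (SE; edgeR adjusted p = 0.763). It was −0.20 with the muscle covariate and −0.11 without TBI 3 and TBI 4, the libraries with the most muscle mRNA. With 1 library left out it ran from −0.54 without control 3 to −0.19 without control 2. Irx3 was at −0.29 ± 0.24, and ran from −0.48 without TBI 2 to −0.13 without control 2, with −0.16 without TBI 4. Of 14 other Iroquois and skeletal homeobox genes, 9 were tested, all 9 were lower (median −0.52), and 4 had an unadjusted p under 0.05. None passed in edgeR over all genes, and DESeq2 called 0. Shox2 was at −0.74 ± 0.24 (SE), Mkx, a tendon regulator, at −0.72 ± 0.26, and Dlx5, an osteoblast regulator, at −0.62 ± 0.24.

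Osteocyte genes outside the 7 lay in both directions. Of 16 listed, 15 were tested, 12 were lower and 3 higher, with a median of −0.39 and a range from −1.22 to 0.49. None passed in edgeR over all genes, 5 had an unadjusted p under 0.05, all lower, and DESeq2 called 0. The 3 higher genes were Slc1a3 at 0.49 ± 0.37 (SE), Dstn at 0.19 ± 0.19 and Cd44 at 0.097 ± 0.23. Dkk1, a secreted Wnt inhibitor, measured 2.61, 4.34, 1.57 and 2.21 CPM in TBI 1 to 4 and 6.91, 7.38 and 4.64 CPM in controls 1 to 3, without overlap, at −1.22 ± 0.34 (SE). Mepe did not overlap either, at −1.15 ± 0.40, and was at −0.64 without TBI 3 and TBI 4. Mmp14, a collagenase of the cell membrane, was at −0.56 ± 0.18. Sost was at −1.11 ± 0.58 with overlapping groups, between −1.90 (without TBI 2) and −0.83 with 1 library left out, and at −0.50 without TBI 3 and TBI 4.

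**Figure D3:**
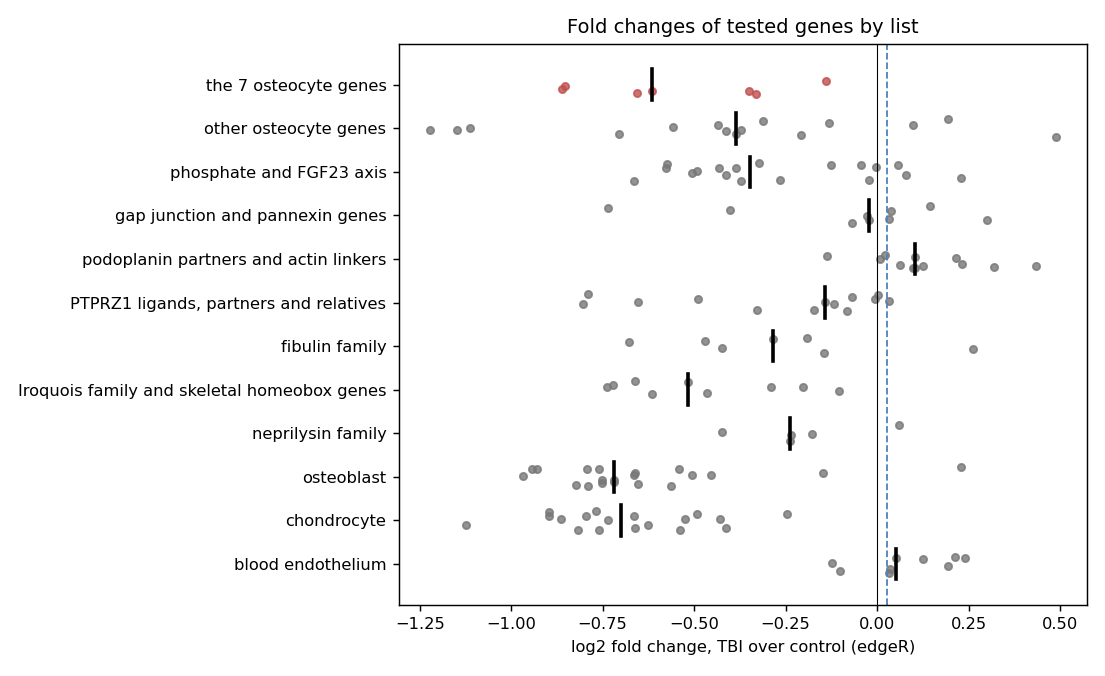
Log2 fold change, TBI over control, of each tested gene (points) by list, with the list median as a black bar and the median of all tested genes as a dashed line at 0.026. The 7 osteocyte genes (red) run from −0.86 to −0.14, and the osteoblast list from −0.97 to 0.23. The upper end of the osteoblast list is Phospho1, and its next highest gene is Tnfrsf19 at −0.149, just below Fgf23 at −0.139.

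Per kilobase of annotated exon the 7 genes spanned a wide range of levels. Gja1 stood at 12.5 ± 0.256 CPM per kb after TBI (SD, n = 4) and 19.2 ± 3.84 in controls (SD, n = 3). Fbln7 followed at 4.83 ± 1.41 CPM per kb after TBI and 7.60 ± 1.32 in controls. Pdpn measured 3.24 ± 0.636 CPM per kb after TBI and 4.08 ± 0.776 in controls, and Phex 2.60 ± 0.589 and 4.70 ± 0.944. These neighbours change places between the groups and do not differ beyond their spread in either, and after TBI the spreads of Fbln7 and Pdpn also overlap. Irx5 came next at 1.55 ± 0.358 CPM per kb after TBI and 1.98 ± 0.495 in controls, then Ptprz1 at 0.796 ± 0.086 and 1.45 ± 0.235. Irx5 and Ptprz1 do not differ beyond their spread in controls, where 1 SD around each mean overlaps, but stand apart after TBI. Fgf23 was last at 0.272 ± 0.111 CPM per kb after TBI and 0.302 ± 0.0846 in controls. The lengths join the exons of all annotated transcripts, so a level is too low where the femur uses a shorter form.

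Each gene was also set against the osteoblast markers of its own library, as its log2 CPM minus the mean log2 CPM of the 20 osteoblast genes. On this scale of differences Ptprz1 was −3.32, −3.40, −3.52 and −3.35 in TBI 1 to 4, against −3.13, −3.28 and −3.14 in controls 1 to 3. The groups did not overlap, and the means differed by −0.21 (exact permutation p = 0.0571, two-sided, the smallest possible with 4 against 3 libraries; 0.4 adjusted over the 7 genes). The other 6 overlapped. The difference was −0.23 for Phex (exact permutation p = 0.343), 0.042 for Gja1 (exact permutation p = 0.571) and −0.047 for Fbln7 (exact permutation p = 0.857). It was 0.31 for Pdpn (exact permutation p = 0.4), 0.29 for Irx5 (exact permutation p = 0.171) and 0.48 for Fgf23 (exact permutation p = 0.229). With 1 library left out, the difference ran from −0.31 to −0.073 for Phex (nearest 0 without TBI 4), 0.0089 to 0.094 for Gja1 (without TBI 4 and without TBI 1), 0.14 to 0.50 for Pdpn (without control 1 and without control 3) and 0.13 to 0.78 for Fgf23 (without control 2 and without control 3). For Fbln7 it ran from −0.24 to 0.25 and changed sign. Adjusted over the 7 genes, these permutation p-values were 0.534 for Fgf23 and Irx5, 0.56 for Phex and Pdpn, 0.666 for Gja1 and 0.857 for Fbln7. Against the chondrocyte markers the difference for Ptprz1 was −0.15, and its groups overlapped. The level of Gja1 stayed within 0.20 of the osteoblast mean on the log2 scale in every library, from −0.059 to 0.20 after TBI and from 0.026 to 0.08 in controls.

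**Figure D4:**
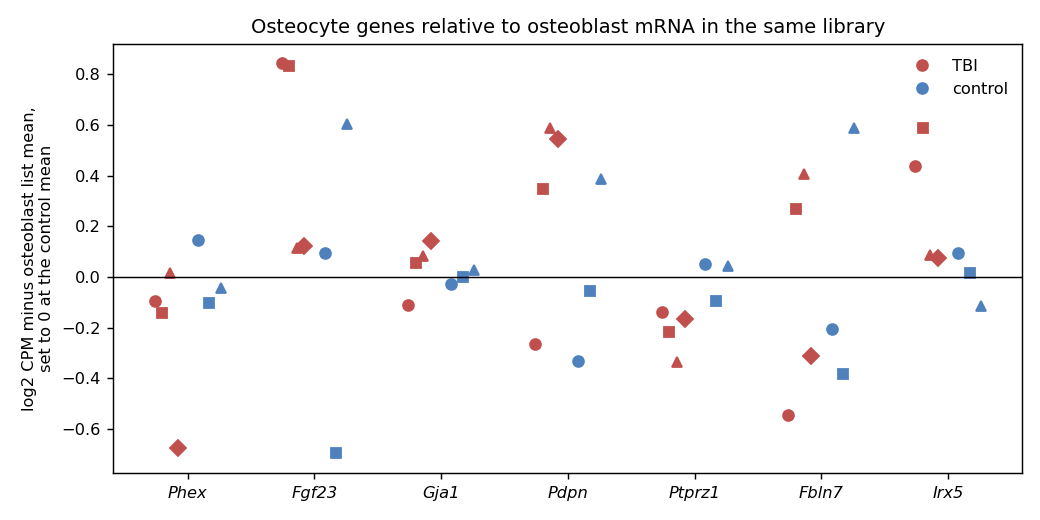
Log2 CPM of each gene minus the mean log2 CPM of the osteoblast markers in the same library, shifted so that the control mean of each gene is 0. Red points are TBI and blue points control, with the shape for the replicate number (circle 1, square 2, triangle 3, diamond 4). Ptprz1 is the gene whose red points all lie below its blue points.

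The 7 genes were compared with one another in 21 pairs, as the log2 ratio of their levels within a library, a comparison chosen after seeing the data. Only the ratio of Ptprz1 to Irx5 had groups that did not overlap, with a mean of 1.23 ± 0.234 after TBI (SD, n = 4) and 1.74 ± 0.138 in controls (SD, n = 3; exact permutation p = 0.0571, 0.599 adjusted over 21 pairs). The ratio of Phex to Fgf23 averaged 4.83 ± 0.413 after TBI (SD, n = 4) and 5.53 ± 0.625 in controls (SD, n = 3), with overlap (exact permutation p = 0.114, 0.599 adjusted). The ratio of Phex to Ptprz1 was 0.497 ± 0.359 after TBI and 0.509 ± 0.0935 in controls, a difference of −0.012 between the means.

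Profiles over the 7 libraries were compared by the root-mean-square difference of log2 CPM, each gene centred on its own mean, against the 15237 other genes with a mean of at least 1 CPM. This is a description, and all profiles share the same libraries and their depth. Gja1 lay nearest to Adamts2 (0.060), a protease that trims procollagen, then to Serpinh1 (0.068), the collagen chaperone, and Robo1 (0.070). Ptprz1 lay nearest to Pard6g (0.070), Cadps2 (0.081) and Col11a2 (0.088), a cartilage collagen. Phex lay nearest to Ccdc194 (0.14), Col1a2 (0.15) and Col1a1 (0.16), the chains of bone collagen. Fbln7 lay nearest to Tcaf2 (0.12), Prelp (0.14) and Comp (0.14), both of the last being matrix proteins of cartilage and tendon. Pdpn lay nearest to Tgfb2 (0.060), Hoxa3 (0.064) and Il17rd (0.065), and Irx5 to Csf1 (0.12), Matk (0.12) and Snx7 (0.12). Among the members, Ptprz1 and Gja1 were closest (0.17), so that Gja1 ranked 55 among the 15237 genes set against Ptprz1. Phex and Ptprz1 followed (0.24), while Phex and Pdpn were farthest apart (0.52). Fgf23 was below 1 CPM and was not compared.

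**Figure D5:**
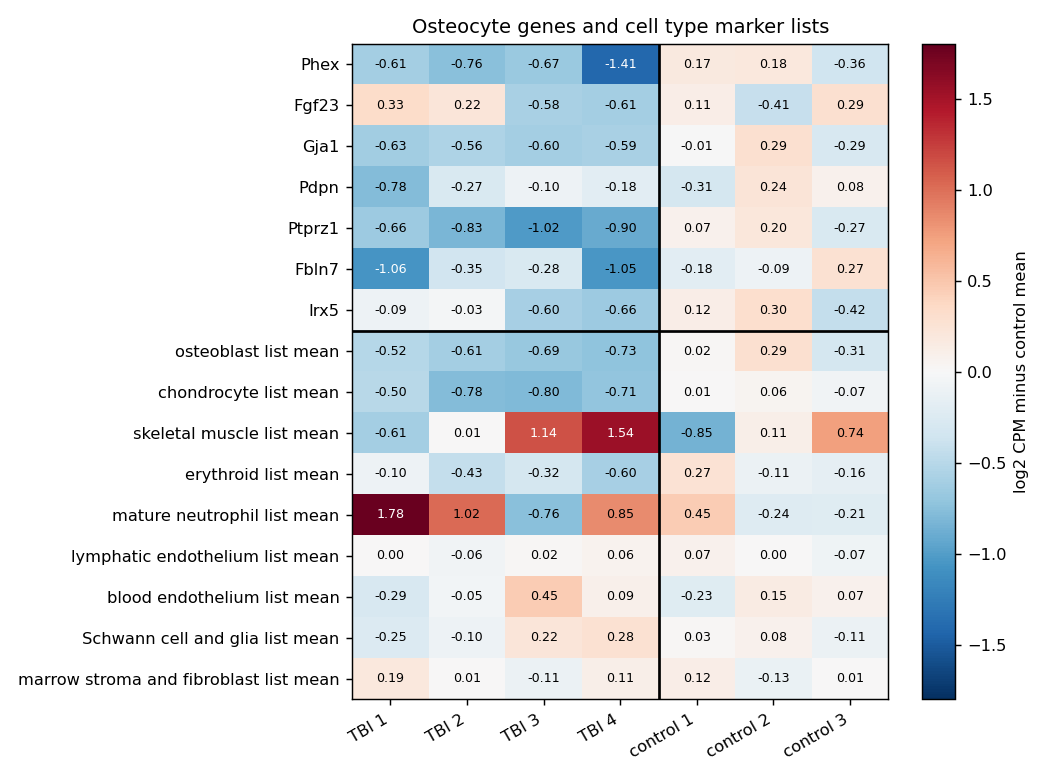
Log2 CPM of each gene (upper rows) and mean log2 CPM of each marker list (lower rows) in every library, as the difference from the control mean, with red for higher and blue for lower. Phex, Gja1 and Ptprz1 are at −0.56 or lower in all TBI columns, Fgf23 and Irx5 are between −0.58 and −0.66 in TBI 3 and TBI 4, and the skeletal muscle row reads 1.14 and 1.54 in those columns.

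The authors' deposited normalized table, whose values are on a log2-like scale, lists all 7 genes. TBI minus control differences there were −0.80 for Phex, −0.76 for Ptprz1, −0.62 for Fbln7, −0.59 for Gja1, −0.27 for Irx5, −0.27 for Pdpn and −0.061 for Fgf23. Every sign was the same as in the fit to the counts, and the order of the genes differed only in that Phex and Ptprz1 changed places.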

How the data were processed

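Per the labels' protocols, RNA came from whole femurs crushed in Trizol, was cleaned on columns and went into stranded libraries of polyadenylated RNA. The authors deposited raw read counts for 49671 Ensembl genes and a table of normalized log2 values for 18549 genes. The step behind the log2 values is not stated. The submitters' processing notes name STAR, DESeq and GRCm38 with no version or role. Which counter was used, whether it used strand and what it did with multiply matching reads is not stated either.

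GENCODE M21 (GRCm38) gave symbols and positions to 49412 identifiers (99.5%). A symbol with several identifiers was taken from the one with most counts. Counts were filtered with filterByExpr (17144 genes kept) and scaled by TMM. TBI was compared with control by the quasi-likelihood test of edgeR 4.0.16 (R 4.3.3), with Benjamini-Hochberg adjustment over all genes and a threshold of 0.05. Standard errors are the estimate divided by the root of F. Log2 CPM used a prior count of 2. Alternatives were RLE and upper quartile scaling, no filter, 1 CPM in 3 libraries, DESeq2 1.42.0, limma-voom with and without quality weights (limma 3.58.1), the replicate number as a block, a muscle covariate, a threshold of 0.1, and libraries left out. Relative levels were tested by exact permutation of the 35 splits. Libraries of a group differed beyond sampling noise (chi-square per degree of freedom 27.2 or more). The procedure was tested on data simulated gene by gene, without shared shifts in tissue makeup, so that test does not cover such shifts. No batch is named in the labels.

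The members and lists were chosen with earlier results of these data known. Genes named beside the members are the 3 with the smallest p of each pathway list and a set of 17 given whatever their values. Among those named outside this rule are Fgfr4, Hbb-bs, Slc1a3, Dstn and Cd44. Marker lists of other cell types are given as sums and counts, with Hbb-bs also given by value. Promoter windows are RefSeq's on GRCm38.p6. They were matched by symbol for 6 of the 7 genes, all but Irx5.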

Additional observations from a re-analysis of the deposited data

Results flagged for a closer look

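Among 66 sets of 4 TBI values checked, 4 had a library whose gap to the next was above 0.829 of the whole range, and chance flags about 1 in 20. None of the 7 osteocyte genes was among them. Kl stood out in TBI 4 at 0.949 CPM, the library with the most skeletal muscle mRNA. Mdk stood out in TBI 2 at 8.98 CPM and Dlx5, also in TBI 2, at 20.3 CPM, both within the range of the controls. Mkx stood out in TBI 3 at 2.98 CPM, below the other TBI libraries and the controls.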

How the results depend on the processing

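Over the alternatives run, Phex, Gja1, Pdpn, Ptprz1, Fbln7 and Irx5 kept a lower estimate after TBI in each, and no alternative except DESeq2 called any of the 7 at 0.05. DESeq2 called 103 genes and 2 members, Ptprz1 (−0.86) and Gja1 (−0.61); with 1 library left out edgeR called 0 genes and 0 members, and likewise at a threshold of 0.1. The labels do not say what the replicate numbers stand for. Deviations from the group means correlated at 0.549, −0.0277 and 0.322 between same-numbered libraries 1 to 3, and at 0.393 between TBI 4 and control 3. Skeletal muscle marker sums rose with the number in both groups. Whether same-numbered libraries share a source was not tested. With the replicate block the fit called 0 genes, Phex stood at −0.69 and Fgf23 at 0.00723. TBI 4 has no partner there.

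With 1 library left out, estimates ran from −0.343 to 0.0314 for Fgf23, −0.219 to 0.438 for Galnt3, −0.0923 to 0.0157 for Furin, −0.125 to 0.303 for Gja4 and −0.472 to 0.0214 for Mme, and from −0.238 to 0.247 for Fbln7 relative to osteoblast markers. Fgf23 turned positive with quality weights (0.0923), without TBI 3 (0.00816), TBI 4 (0.0178) or control 3 (0.0314), and without TBI 3 and TBI 4 together (0.242). With 1 CPM required in 3 libraries it was not tested. Galnt3 turned negative without TBI 1 (−0.177) or control 3 (−0.219), and Furin positive with the block (0.0159) or without TBI 4 (0.0157). Gja4 turned negative with the muscle covariate (−0.0476), without TBI 3 (−0.125) and without TBI 3 and TBI 4 together (−0.23), a setting that also turned Hspa9 (−0.0565) and Rdx (−0.0599). Mme was at 0.0214 without control 1. Relative to bone cells, Fbln7 turned positive against the chondrocyte list (0.0137) and, against osteoblasts, without TBI 1 (0.118), TBI 4 (0.0433) or control 3 (0.247). Relative to osteoblast markers, 4 members were higher after TBI than in controls, and 4 to 5 with 1 library left out. The causes were not tested. Among the 7 genes Fgf23 had the fewest counts, 6 to 16 per library.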
